A study of Mus musculus with 3 samples.

Results

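The karyopherins of nuclear transport described here are 10 genes, chosen by symbol from the 32285 genes of the features files: the importin alpha genes Kpna1, Kpna2, Kpna3, Kpna4 and Kpna6, the importin beta family genes Kpnb1, Ipo5, Ipo7 and Tnpo1, and the exportin gene Xpo1. All 10 symbols matched exactly 1 row. The genes were chosen with their CPM (UMIs scaled to a library total of 1000000) in these libraries already known, above all that of Kpna2, so their levels and ratios are a description and carry no test. They were measured by single-cell RNA sequencing (10x Genomics 3' v3) in E14 cells, an embryonic stem cell line of the 129/Ola mouse background, cultured in serum medium containing leukemia inhibitory factor. Treatment began 24 h after seeding. The groups were a control given ethanol for 6 h, cells given 250 µg/mL of the translation inhibitor cycloheximide for 3 h, and cells given the same dose for 6 h, the drug being dissolved in ethanol (0.007% in the medium). The control matched only the 6 h library in exposure time. In comparisons with the 3 h library, drug exposure and time in culture cannot be told apart. All cells were frozen and thawed before barcoding. Each group was 1 library, so every difference below compares libraries without a replicate check, and intervals cover counting error only.

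Karyopherins carry proteins and RNAs through the nuclear pore. Importin alpha proteins bind the classical nuclear localization signal of a cargo and join it to importin beta (Kpnb1), which moves the complex inward until Ran in its GTP form releases the cargo. Cse1l returns importin alpha to the cytoplasm, and Xpo1 exports proteins with leucine-rich export signals. Other beta family members bind cargo directly. Kpna2 is known as the predominant importin alpha of undifferentiated mouse embryonic stem cells, where Oct4 (Pou5f1) is among its cargoes, and its transcript is known to peak late in the cell cycle.

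Barcodes with at least 15000 UMIs and 1 to 20% mitochondrial UMIs were kept, which left 2187 cells of the control, 1739 of the 3 h library and 2554 of the 6 h library. Their summed UMIs were 111447486, 106842407 and 140321458, and the median per cell was 43160, 51726 and 46200. The mitochondrial limits left out 62 control barcodes, 1 at 3 h and 8 at 6 h. Libraries shared 1 to 3 kept barcodes in each pair. The embryonic stem cell label was matched by the levels of pluripotency markers. Of these, 10 of 10 averaged at least 10 CPM over the libraries, as did 7608 of all 32285 genes. Of primitive endoderm, mesoderm and neural markers 0 of 6, 0 of 4 and 1 of 4 did. Markers of all 4 lists were detected in every library, so detection alone does not tell them apart. The pluripotency markers summed to 7260, 8205 and 7318 CPM. Most of that sum was Dppa5a (4771, 5327 and 5475 CPM). By CPM 8 of the 10 markers were below the control at 6 h (35.9% of all genes) and 4 had a log2 ratio at or below -0.5 (9.69% of all genes), which were Zfp42 (-0.93), Utf1 (-0.73), Fgf4 (-0.67) and Sox2 (-0.54). Fibroblast feeder markers summed to 2.48, 1.62 and 1.29 CPM, with 3, 3 and 2 of 6 at 0, and primitive endoderm markers to 12.4, 10.6 and 8.94 CPM. The primitive endoderm markers did not move together. Sox7 (5.55, 1.32 and 0.299 CPM) and Gata6 were below the control at both times. Gata4 (1.88, 2.42 and 3.35 CPM), Sox17 and Foxa2 were above it at both times, and Dab2 only at 3 h. Mesoderm markers summed to 4.05, 4.48 and 6.81 CPM, and 2-cell-like markers to 0.592, 0.215 and 0 CPM, with 4 of 4 at 0 at 6 h. Neural markers summed to 84.0, 56.4 and 34.5 CPM, with none of 4 at 0. Most of that sum was Tubb3 (65.3, 35.1 and 18.6 CPM), while Pax6 (2.55, 4.18 and 3.10 CPM) and Sox1 (6.85, 10.2 and 6.61 CPM) were highest at 3 h. The part of these markers in the results below was not tested.

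Kpna2 was the gene on which the results turned, and in single cells its level went with mitotic transcripts, so its promoter is printed beside that of Kpna4, another importin alpha gene. The sequences are those of RefSeq on GRCm38.p6, from 250 bases before to 50 bases after the annotated start, read 5′ to 3′ on the strand of the gene. Kpna2 lies at chr11:106999476-106999775 on the minus strand and Kpna4 at chr3:69127043-69127342 on the minus strand. Capitals mark the letters TTTGAA or TTCAAA, the core of the cell cycle genes homology region (CHR), and CCAAT or ATTGG, the CCAAT box bound by NF-Y, searched on both strands. The CCAAT box, and Kpna4 as the gene to print, were chosen after the sequences had been seen, and the CHR variant TTTAAA was not searched. Its letters are present, unmarked, near the end of the Kpna2 window and absent from that of Kpna4. They are also present in a further window of Ipo5 and of Tnpo1, so they do not set Kpna2 apart from its relatives. No count below includes them.
Kpna2: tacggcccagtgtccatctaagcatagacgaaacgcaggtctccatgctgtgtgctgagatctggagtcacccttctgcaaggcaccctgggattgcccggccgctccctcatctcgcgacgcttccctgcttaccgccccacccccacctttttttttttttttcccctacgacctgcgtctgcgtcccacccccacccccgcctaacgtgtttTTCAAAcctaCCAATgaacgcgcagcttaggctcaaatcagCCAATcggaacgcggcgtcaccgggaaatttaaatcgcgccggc
Kpna4: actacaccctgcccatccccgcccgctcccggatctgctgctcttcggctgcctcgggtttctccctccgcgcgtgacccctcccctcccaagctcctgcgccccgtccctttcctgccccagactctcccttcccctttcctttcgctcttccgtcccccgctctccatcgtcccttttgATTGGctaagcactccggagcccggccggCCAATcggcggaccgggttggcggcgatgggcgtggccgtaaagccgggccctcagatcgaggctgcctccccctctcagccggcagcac
The Kpna2 window held 1 CHR match, on the reverse strand at -35 to -30 from the start, and 2 CCAAT boxes, at -25 to -21 and at 7 to 11. The Kpna4 window held 2 CCAAT boxes, at -69 to -65 and -40 to -36, and no CHR match. Of 32851 mouse promoter windows of this length, 17.9% held a CHR match, 37.4% held a CCAAT box, and 2.09% held a CHR match with at least 2 CCAAT boxes. That last combination is the one the Kpna2 window holds, so its share is a description and no test. The share with at least 2 CCAAT boxes alone is not given here. Of the 7 karyopherin genes with an entry, only Ipo7 also held a CHR match, at -178 to -173, and 6 held a CCAAT box, with 3 in Kpnb1, 2 each in Ipo5 and Xpo1 and 1 in Tnpo1. Ipo5 and Tnpo1 each had a further window, which held none of the letters searched, though both held the unsearched TTTAAA. These counts are of genes, while the shares above are of windows. Kpna1, Kpna3 and Kpna6 had no entry.

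Kpna2 (ENSMUSG00000018362, GRCm38 chromosome 11, 106988629 to 106999541, minus strand) stood at 72.3 CPM in the control (95% exact Poisson interval 70.7 to 73.9). After 3 h of cycloheximide it stood at 17.4 CPM (16.6 to 18.2), and after 6 h at 12.4 CPM (11.9 to 13.0). These values rest on 8057, 1856 and 1747 UMIs. The control stood far above both cycloheximide libraries. The 3 library intervals did not overlap, but they cover counting error only. The same held for Kpna1, Kpna3, Kpnb1, Ipo5, Ipo7 and Tnpo1, and the share over all genes was not computed. The level at 3 h was 24.0% of the control, a log2 ratio of -2.06 (exact conditional binomial interval -2.13 to -1.98). At 6 h it was 17.2% of the control, a log2 ratio of -2.54 (-2.61 to -2.46). Between 3 h and 6 h the log2 ratio was -0.48 (-0.58 to -0.39), so most of the difference was already present at 3 h. Among the 7608 genes whose CPM averaged 10 or more over the 3 libraries, Kpna2 had the ratio of rank 2 from the lowest at 3 h, rank 14 at 6 h, and rank 311 between 3 h and 6 h. RefSeq lists a pseudogene copy, Kpna2-ps, that has no row in the features files. How reads matching both were counted is not given in the sources used here, so the Kpna2 level is uncertain in that respect.

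**Figure D1:**
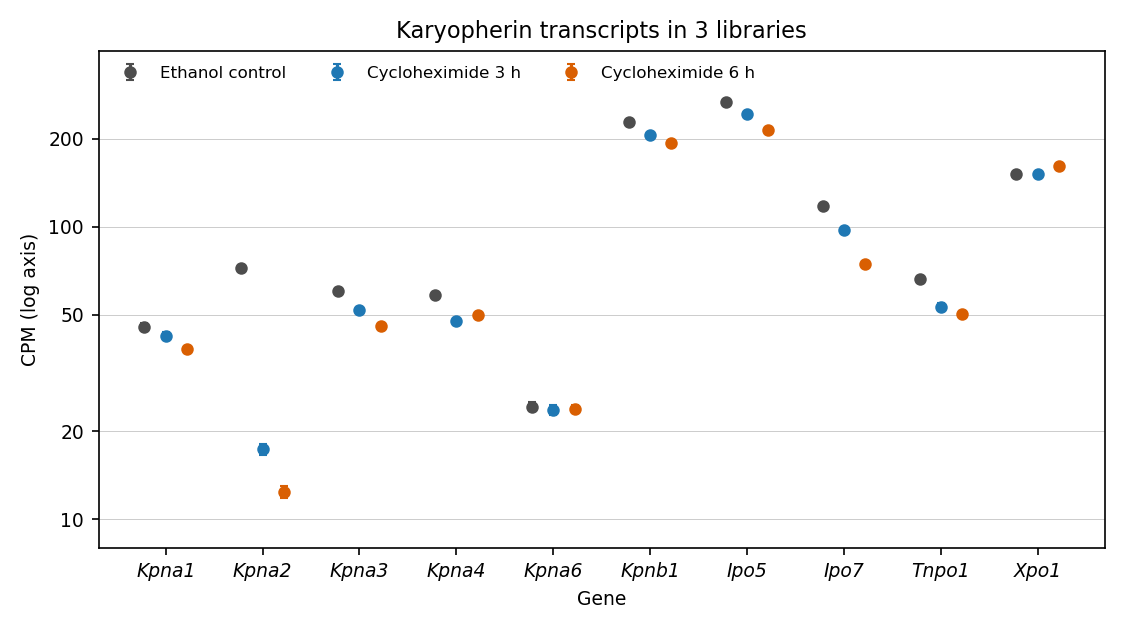
CPM of the 10 karyopherin genes (log axis) in the ethanol control, at 3 h and at 6 h of cycloheximide, 1 library each; bars are 95% exact Poisson intervals, mostly smaller than the points. Kpna2 went from 72.3 to 17.4 and 12.4 CPM, and the next lowest log2 ratio at 6 h was that of Ipo7, which went from 118 to 98.0 and 74.6 CPM.

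The other importin alpha genes were much closer to the control. Kpna1 had 45.6, 42.4 and 38.2 CPM (control, 3 h, 6 h), with log2 ratios of -0.11 and -0.26. Kpna3 had 60.4, 52.0 and 45.7 CPM, with log2 ratios of -0.22 and -0.40. By CPM both were highest in the control and lowest at 6 h, and by mean UMIs per cell both were highest at 3 h. Kpna4 had 58.7, 47.6 and 49.8 CPM, with log2 ratios of -0.30 and -0.24. Kpna6 had the lowest control level of the group, 24.3 CPM, followed by 23.6 and 23.9 CPM. Its log2 ratios of -0.04 (-0.12 to 0.04) and -0.03 (-0.10 to 0.05) had intervals that included 0. The log2 ratio of Kpna2 minus that of each of these 4 genes was -2.02 to -1.76 at 3 h and -2.51 to -2.14 at 6 h, differences in which the scaling between libraries cancels.

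The rank of Kpna2 within its family differed between the libraries. UMIs of a 3' library do not scale with transcript length, so they were compared between genes directly. Capture may still differ between genes, which was not measured, and the Kpna2 count is uncertain because of Kpna2-ps. Kpna2 had the most UMIs of the 5 importin alpha genes in the control, 27.7% of their 29117 UMIs (exact Clopper-Pearson interval 27.2 to 28.2). It had the fewest at 3 h, 9.49% (9.09 to 9.91), and again by 6 h, with 7.32% (6.997 to 7.66). Kpna3 made up 23.1%, 28.4% and 26.9%, and Kpna4 22.5%, 26.0% and 29.3%. Kpna3 was the most abundant member of the family at 3 h and Kpna4 at 6 h. The summed level of the 5 genes was 261, 183 and 170 CPM (control, 3 h, 6 h), with log2 ratios of -0.51 and -0.62. Without Kpna2 the sums were 189, 166 and 158 CPM, with log2 ratios of -0.19 and -0.26.

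**Figure D2:**
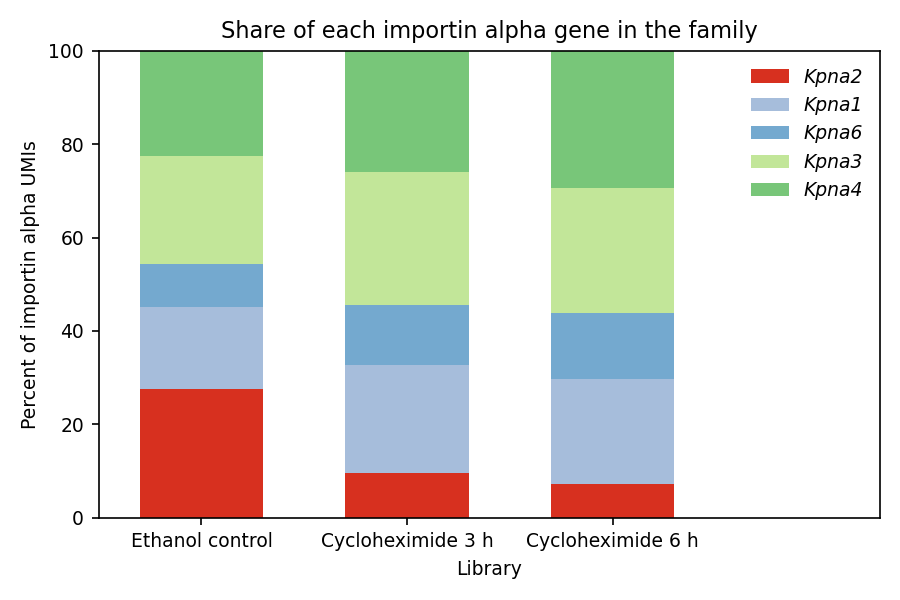
Share of each importin alpha gene in the UMIs of the 5 genes (percent) in each library. The Kpna2 share at the base of the bars was 27.7%, 9.49% and 7.32% from the control to 6 h.

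Kpnb1, the importin beta partner of all importin alpha proteins, had 228, 207 and 194 CPM, with log2 ratios of -0.14 and -0.23. Ipo5, an importer of ribosomal proteins and histones, was the most abundant of the 10 genes in every library, at 268, 243 and 214 CPM. Its log2 ratios were -0.14 and -0.32. By CPM both were highest in the control and lowest at 6 h, but by mean UMIs per cell both were highest at 3 h, with 11.6, 12.7 and 10.6 UMIs for Kpnb1 and 13.7, 14.9 and 11.8 UMIs for Ipo5. Ipo7, which imports ribosomal proteins, had 118, 98.0 and 74.6 CPM. Its log2 ratio was -0.27 at 3 h, and by 6 h it was -0.66 (-0.70 to -0.62), the second lowest of the 10 genes. Tnpo1, the importer of many RNA-binding proteins, had 66.5, 53.4 and 50.3 CPM, with log2 ratios of -0.32 and -0.40. Xpo1 had 152, 152 and 162 CPM. The log2 ratio of Xpo1 was -0.002 (-0.03 to 0.03) after 3 h and 0.09 (0.06 to 0.12) after 6 h, the highest of the 10 genes at both times. The ratio of Kpna2 to Kpnb1 UMIs, the pair that forms the classical import receptor, was 0.318, 0.0841 and 0.0643 in the same order.

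The counts below place the 10 genes among all genes as a description only, since the genes were chosen on these values. At 3 h, 1 of 10 genes was at or below -1 (log2), where 0.513% of all 7608 genes were. At 6 h it was again 1 of 10, against 2.41% of all genes, and between 3 h and 6 h 0 of 10, against 0.657%. A log2 ratio at or below -0.5 was seen for 1 of 10 genes at 3 h (3.21% of all genes) and for 2 of 10 at 6 h (9.69%), Kpna2 and Ipo7. By CPM, 10 of 10 genes were below 0 at 3 h and 9 of 10 at 6 h, against 35.9% of all genes at each time. The median log2 ratio of the 10 genes was -0.18 after 3 h and -0.29 after 6 h, beside 0.11 and 0.17 for all genes. Relative to that all-gene median, a position that no common scaling changes, 10 of 10 were lower at 3 h and at 6 h and 8 of 10 between 3 h and 6 h (50% of all genes by definition). Both comparisons with the control share that library, so they are given side by side and not as independent evidence.

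**Figure D3:**
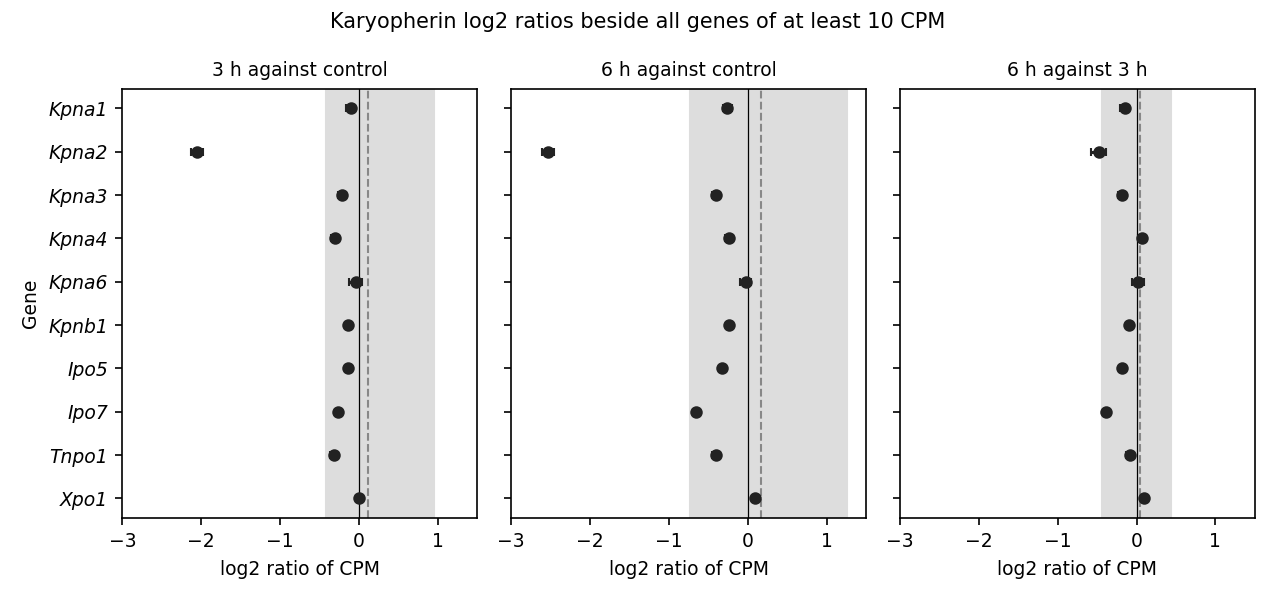
Log2 ratio of CPM (x axis) of each karyopherin gene (rows) in the 3 comparisons, with 95% exact conditional binomial intervals. The grey band spans the 5th to the 95th percentile of all genes of at least 10 CPM and the dashed line is their median; Kpna2 lies left of the band in every panel and the other genes lie inside it.

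Small differences depended on the scaling between libraries. TMM factors of edgeR moved every log2 ratio by -0.17 at 3 h and -0.29 at 6 h. With them 10 of 10 genes were below 0 at both times, and 8 of 10 were at or below -0.5 at 6 h, where 21.5% of all genes were. The medians of all genes, 0.11 and 0.17 by CPM, also came below 0 with these shifts, so the majority of all genes were below 0 too. Mean UMIs per cell moved every ratio by 0.27 at 3 h and 0.11 at 6 h. With that scaling 7 of the 9 genes other than Kpna2 were above 0 at 3 h and 2 of 9 at 6 h, so no direction is given for them at 3 h. By CPM 64.1% of all genes were above 0 at each time, and an upward shift can only raise that share. The share under this scaling was not computed. The log2 ratio of Kpna2 stayed between -2.24 and -1.79 at 3 h and between -2.84 and -2.43 at 6 h over all alternatives run.

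The rest of the transport pathway was described from lists. Of 14 other importin and exportin genes, 13 passed the floor of 10 CPM. Their log2 ratios had a median of 0.006 after 3 h and -0.12 after 6 h. At 6 h, 2 of 13 were at or below -0.5 and 0 of 13 at or above 0.5, where 9.69% and 26.6% of all genes were. The 2 genes were Ipo8, named after its value was seen, and Xpot. Xpot, the exporter of tRNAs, was the lowest, with 72.5, 47.3 and 35.9 CPM and a 6 h log2 ratio of -1.01 (-1.06 to -0.96). Xpo4 was the highest, with 52.2, 54.5 and 61.9 CPM and a 6 h log2 ratio of 0.25 that became -0.04 under TMM factors. Cse1l, which recycles importin alpha, had 116, 102 and 91.3 CPM, with log2 ratios of -0.19 and -0.34. Kpna7, the remaining importin alpha gene, had 2, 1 and 1 UMIs in the kept cells of the 3 libraries, too few for a ratio.

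Of 11 genes of the Ran cycle and its carriers, 9 passed the floor, with a median log2 ratio of 0.05 after 3 h and 0.06 after 6 h. Ran, the GTPase that gives transport its direction, had 1919, 1883 and 1869 CPM. Rcc1, its exchange factor on chromatin, had 76.2, 74.3 and 79.5 CPM, and Rangap1, which activates its GTPase in the cytoplasm, had 140, 153 and 159 CPM. The log2 ratios of these 3 genes lay between -0.04 and 0.18 at both times. Under TMM factors all 3 were below 0, as were 7 of 9 genes of the list at each time and the majority of all genes. At 6 h Rangrf, a Ran-binding release factor, was the lowest of the list with -0.18, and Nxt1, a cofactor of messenger RNA export, the highest with 0.59, or 0.30 under TMM factors.

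Of 31 nucleoporin genes on the list, 30 were in the features files and 29 passed the floor. Their median was 0.04 after 3 h and 0.03 after 6 h (log2). At or above 0.5 were 2 of 29 at 3 h and 4 of 29 at 6 h, where 17.9% and 26.6% of all genes were, and 0 of 29 were at or below -0.5 at 3 h (3.21% of all genes) or at 6 h (9.69%). Under TMM factors 6 of 29 were at or below -0.5 at 6 h, against 21.5% of all genes. Ranbp2, the large nucleoporin of the cytoplasmic filaments, was the lowest at 6 h, with 115, 97.1 and 87.6 CPM and a log2 ratio of -0.39. Nup35, a scaffold nucleoporin, was the highest, with 51.6, 84.7 and 111 CPM and a log2 ratio of 1.11 (1.06 to 1.15) at 6 h. The others at or above 0.5 at 6 h, named after their values were seen, were Nup42 (Nupl2 in the files), Nup85 and Rae1, and those at 3 h were Nup35 and Nup42. By CPM Nup35 was the only nucleoporin gene at or above 1 at 6 h, where 8.65% of all genes were. Under TMM factors its 6 h log2 ratio was 0.82, so none was at or above 1, and Nup42 (0.31), Nup85 (0.23) and Rae1 (0.30) were below 0.5.

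The lower Kpna2 level was also seen as a share of cells. For this each cell was thinned to 15000 UMIs, which left out no kept cell. At that depth 58.0% of control cells had a Kpna2 UMI (exact Clopper-Pearson interval 55.9 to 60.1). After 3 h of cycloheximide the share was 21.3% (19.4 to 23.3), and after 6 h it was 16.4% (15.0 to 17.9). Without thinning the shares were 85.2%, 52.3% and 41.8%. Kpna3, close to Kpna2 in control level, had a UMI in 58.7%, 52.5% and 50% of thinned cells, and Kpna6 in 31.3%, 30.1% and 30.4%. A cell without a UMI may still express the gene. Barcodes of 10 to 100 UMIs, used as a measure of free RNA, held Kpna2 at 43.1, 14.2 and 11.7 CPM from 155, 47 and 46 UMIs, lower in both cycloheximide libraries, as in the cells. No cell type known to lack Kpna2 was present to set a background share.

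Relative to its mean, Kpna2 was more unevenly spread over control cells than its relatives. Its mean was 1.01 UMIs per thinned control cell, and 42.0% of cells had 0 UMIs, where a Poisson distribution of the same mean gives 36.3%. At the other end 3.795% of control cells had 4 or more, where Poisson gives 1.99%. The variance over the mean was 1.35 for Kpna2 and 0.995 (Kpna6) to 1.12 (Kpna4) for the other importin alpha genes. It was nearly as high as for Kpna2 in the more abundant Ipo5 (1.34), Xpo1 (1.33) and Kpnb1 (1.33). The excess squared coefficient of variation, which takes out counting noise, was 0.348 for Kpna2 and between -0.012 and 0.144 for the other 9 genes. At 3 h the same measure was 0.514 for Kpna2, and at most 0.180 for the others, and by 6 h it was 0.790 and at most 0.216. It is taken relative to the squared mean, and treated cells averaged only 0.251 (3 h) and 0.191 (6 h) Kpna2 UMIs. The variance over the mean of Kpna2 was instead lower after cycloheximide, 1.13 (3 h) and 1.15 (6 h). Kpna1 came close to these values, with 1.12 and 1.13, and Ipo5 (1.38 and 1.28), Xpo1 and Kpnb1 stood above them. No interval was computed for either measure.

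**Figure D4:**
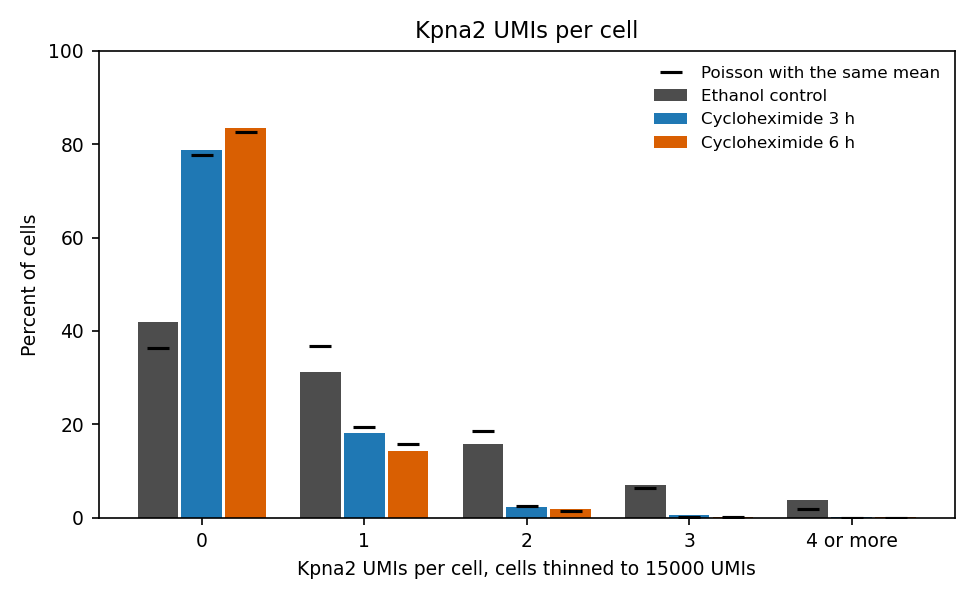
Percent of cells (y axis, bars) with 0, 1, 2, 3 and 4 or more Kpna2 UMIs after thinning to 15000 UMIs, in each library; dashes give a Poisson distribution of the same mean. Control cells with 0 UMIs (42.0%) and with 4 or more (3.795%) both exceeded the Poisson shares of 36.3% and 1.99%.

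Among cells, Kpna2 went with mitotic transcripts. A mitotic sum was taken over 43 genes, such as Top2a, Ccnb1 and Plk1, with Kpna2 left out. Spearman's rho between Kpna2 and this sum was 0.317 over the control cells, 0.182 over those of 3 h and 0.146 over those of 6 h. These are descriptions over cells that share a library and a depth, and a lower mean alone brings more cells with 0 UMIs. The other 9 genes had rho between -0.02 and 0.11 in the control. In the treated libraries the relatives came closer to Kpna2, with 0.117 for Ipo5 and 0.117 for Xpo1 at 3 h, and 0.141 for Xpo1 and 0.122 for Ipo7 at 6 h. In the quartile of control cells with the lowest mitotic sum the mean was 0.620 Kpna2 UMIs per thinned cell (0.556 to 0.689), and in the quartile with the highest it was 1.66 (1.55 to 1.77). The ratio of these quartiles was 2.68 (2.36 to 3.05) among control cells, 2.39 (1.83 to 3.14) after 3 h and 2.75 (2.09 to 3.66) after 6 h. For Kpna3 the ratio was 0.925 (0.816 to 1.05) in the control, and the highest of the other 9 genes was that of Xpo1, 1.22 (1.13 to 1.32). At 3 h the highest was again Xpo1, 1.34 (1.22 to 1.46), and at 6 h Ipo7, 1.37 (1.23 to 1.52). The quartiles are ranges of a score, not cell types.

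The mitotic sum itself was lower after cycloheximide, with a mean of 85.1 UMIs per thinned control cell, 73.9 at 3 h and 68.4 at 6 h, and 35 of its 43 genes were below 0 at 6 h by CPM, against 35.9% of all genes. The sum over 40 S phase genes moved the other way, with means of 81.0, 94.5 and 100.9 UMIs per thinned cell, and the Spearman's rho of Kpna2 with it was -0.17 in the control. The part of the S phase sum in the Kpna2 level was not tested. The median log2 ratio over the 43 mitotic genes was -0.20 after 3 h and -0.27 after 6 h. Kpna2 was lower within every quartile. At 6 h against control its log2 ratio was -2.48 in the lowest quartile, -2.27 and -2.44 in the middle quartiles and -2.44 (-2.67 to -2.22) in the highest. At 3 h it was -1.73, -2.21, -2.27 and -1.90 in the same order. With the quartile bounds of the control cells used in all libraries, which put 1467 of 2554 cells at 6 h in the lowest range, the 6 h ratios were -2.09, -2.16, -2.19 and -1.83. Over all cells the ratio of CPM was -2.54, from summed counts without thinning, so it is not the same measure as the quartile ratios. Per thinned cell the Kpna2 means over all cells were 1.01 UMIs in the control and 0.191 at 6 h.

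**Figure D5:**
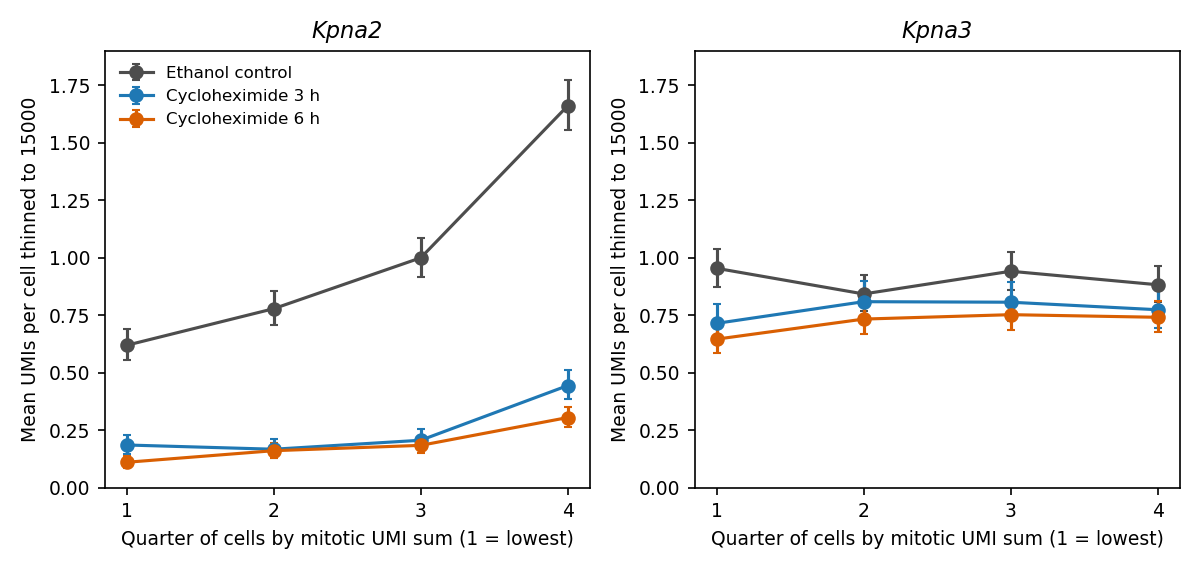
Mean UMIs per thinned cell (y axis) of Kpna2 (left) and Kpna3 (right) in the quartiles of cells of each library, from the lowest to the highest mitotic UMI sum; bars are 95% exact Poisson intervals. Kpna2 ranged from 0.620 to 1.66 in the control, and stayed below 0.45 in every quartile after cycloheximide, while the Kpna3 ratio of the highest to the lowest quartile was 0.925, 1.08 and 1.15 from the control to 6 h.

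Genes most like Kpna2 were named by 2 rules. Over the libraries, the distance between pairs of log2 ratios (3 h and 6 h against control) was taken for 5569 genes of at least 20 CPM. The nearest was Dancr, a noncoding RNA that hosts snoRNAs, at a distance of 0.15, with 43.3, 10.4 and 8.27 CPM. Hspa8, Tcf15, Gbx2, Mat2a, Trib3, Neat1 and Fos followed at distances of 0.72 to 0.91. Their 3 h ratios lay between -1.50 and -1.17, above that of Kpna2, and that of Dancr was -2.06. Over control cells, the 8 genes with the highest Pearson correlation with Kpna2 on log counts, of 3793 genes, were Top2a (0.317), Prc1 (0.304), Ube2c, Cdk1, Aurka, Aurkb, Cdca2 and Smc4 (0.207). All 8 are known for roles in mitosis or chromosome condensation, and 5 were on the mitotic list. Of the 3793 genes 40 were on that list, and their median correlation with Kpna2 was 0.103. Over all 3793 genes the 5th percentile was -0.049 and the 95th percentile 0.053. Ipo5 had the highest value of the karyopherin relatives that entered, at 0.045, and Kpna1 the lowest, at -0.043.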

How the data were processed

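The deposited files hold raw UMI counts per gene and barcode for all 6794880 listed barcodes, made by the authors with Cell Ranger 4.0.0 on mm10, per the submitters' processing notes. Annotation release and strand setting are not given in the sources used here. Of 32285 gene identifiers, 32235 matched GENCODE M21 (GRCm38), which gave positions. Genes annotated antisense to Kpna1, Kpnb1 and Ipo7 had at most 0.108 CPM.

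Libraries held 115188502 to 150987519 UMIs, 87.3 to 92.9% of them in kept barcodes. Counts were summed per library and scaled to CPM, with a prior of 0.5 counts in log2 ratios. No doublets were removed. No test between conditions was made, since each group had 1 library. Intervals are exact Poisson, conditional binomial or Clopper-Pearson at 95%. Ratio and thinning code was tested on simulated data. Members, lists and rules were chosen with earlier results of these data known. Named genes were the 10 members, the highest and lowest 6 h ratio of each pathway list with Cse1l, Ran, Rcc1 and Rangap1, and the 8 genes most like Kpna2 by each rule. For the S phase list the median log2 ratios were 0.29 (3 h) and 0.46 (6 h). Python 3.11.15, numpy 2.4.6, scipy 1.17.1 and edgeR 4.0.16 in R 4.3.3 were used.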

Additional observations from a re-analysis of the deposited data

How the results depend on the processing

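Every group had 1 library, so variation between cultures could not be measured, and about 1 UMI per thinned cell limits what single cells show. No paired analysis was possible because each group had 1 library. The Kpna2 log2 ratio at 3 h, 6 h and between them was -2.23, -2.82 and -0.59 under TMM factors, -2.24, -2.84 and -0.60 under RLE factors, and -1.79, -2.43 and -0.64 by mean UMIs per cell. It stayed within its counting interval with a prior of 5 counts, minimums of 2000 or 30000 UMIs, no mitochondrial limits, removal of barcodes above 2 times the median UMIs, 10% free RNA subtracted, or every cell weighted alike. The count of the 10 genes at or below -1 did not change under the 3 scalings. The control share of Kpna2 among importin alpha UMIs was 28.4% with a minimum of 30000 UMIs, 28.3% without mitochondrial limits and 28.6% with free RNA subtracted.

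Depth moved the values over cells. Thinned to 25000 UMIs, which kept 2055, 1630 and 2402 cells, 74.2%, 30.1% and 23.3% of them had a Kpna2 UMI (control, 3 h, 6 h), and 85.2%, 52.3% and 41.8% without thinning. Spearman's rho with the mitotic sum was 0.399 in the control at 25000 UMIs, and 0.698, 0.514 and 0.424 without thinning, where both measures share the depth of the cell. The share of all genes at or below -1 was 6.68% at 3 h and 7.16% at 6 h with no floor, while a floor of 50 CPM gave 0.272% and 1.498%. The cause was not tested.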

Other observations

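The Kpna2 transcript had a shorter 3' untranslated region than its relatives. In the longest coding transcript of each gene (GENCODE M21), the Kpna2 3' untranslated region was 258 bases long with 1 ATTTA, the letters of an AU-rich element. The other 9 genes had 1194 to 6940 bases and 3 to 12 ATTTA. The median of 7459 genes of at least 10 CPM was 885 bases, with quartiles of 352 and 1901, and their median ATTTA count was 1, the count of Kpna2. The Kpna2 gene also spanned the fewest bases of the 10, 10913, against 28168 to 87366, while its coding length of 1587 bases was close to that of Kpna1 (1614), Kpna3 (1563) and Kpna6 (1608). Whether these features bear on the ratios was not tested.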
